A study of Mus musculus with 4 samples.

Results

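The Zfp zinc finger genes were taken from a table of RNA contacts in spermatogonial stem cells of the mouse, the self-renewing cells from which sperm are made. Members were all RNAs named Zfp followed only by digits, and they numbered 202 of the 13318 RNAs in the table (1.52%). They stood in 660 of the 56636 listed pairs (1.17%). Of these pairs, 64 joined a Zfp RNA to itself (within-RNA pairs), 591 joined it to an RNA outside the group, and 5 joined different Zfp RNAs. A reference gene table (RefSeq, assembly GRCm38.p6) held 201 of the members, all protein coding, among 372 symbols of this form. The unmatched one was Zfp125.

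Contacts were measured by RIC-seq, which fixes cells with formaldehyde, ligates neighbouring RNA ends inside them and counts the resulting chimeric reads for each pair of RNAs. The compared groups were 2 differentiation libraries, with "Differentiation" in the genotype field, and 2 control libraries, with "WT" there. All 4 were labelled spermatogonial stem cells, and the sources used here do not give the inducer, the duration or the age of the animals. Since no label ties a library to a culture or animal of its own, the p-values reflect library-to-library spread alone, and that spread may be technical.

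Zfp is the mouse name for genes of proteins with zinc fingers, most of them of the C2H2 type, in which paired cysteines and histidines hold a zinc ion and each finger can read a few bases of DNA. Many carry a KRAB domain, which recruits the corepressor Trim28 and the histone methyltransferase Setdb1 to silence retrotransposons and imprinted regions. KRAB zinc finger genes lie in clusters of related copies that arose by duplication. Others, without a KRAB domain, are single genes with roles in transcription, chromatin, splicing or mRNA decay.

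Total chimeric counts over the listed pairs were 793129 and 1155923 in the differentiation libraries and 1209031 and 1400011 in the control libraries. Pairs with a Zfp RNA held 5941 and 8656 of the differentiation counts and 10061 and 12172 of the control counts. Every listed pair had at least 1 count in all 4 libraries, so pairs seen in some libraries only were not analysed here. Labelled cell type and marker genes were compared through contact totals, which sum all counts of an RNA and are given as CPM, the counts scaled by library size as edgeR gives them. Of 14 markers of undifferentiated spermatogonia 8 were listed, with summed contact totals of 227 and 254 CPM in differentiation libraries and 415 and 492 CPM in controls, and Id4, Nanos2, Lhx1, Lin28a, Neurog3 and Bcl6b were not listed. Of those listed, Uchl1 (mean 19.1 CPM in differentiation libraries, 18.6 CPM in controls) and Nanos3 (0.948 and 0.541 CPM) were not lower. The 10 markers of differentiating spermatogonia and meiosis summed to 542 and 627 CPM in differentiation libraries, against 161 and 156 CPM in controls. The largest parts were Dmc1 (mean 193 CPM in differentiation libraries, 52.8 CPM in controls), Sycp1 (171 and 24.2 CPM) and Smc1b (121 and 26.4 CPM). Kit (14.4 and 16.2 CPM) and Rec8 (1.36 and 1.37 CPM) were not higher. The 7 listed of 8 general germ cell markers summed to 256 and 323 CPM, against 96.6 and 88.7 CPM in controls, with Tdrd9 (mean 138 and 30.8 CPM) and Mov10l1 (107 and 41.1 CPM) the largest parts. Sertoli cell markers (7 of 9 listed, without Amh and Rhox5) summed to 611 and 566 CPM in differentiation libraries and 987 and 1121 CPM in controls, and fibroblast markers (8 of 10, without Dcn and Lum) to 1000 and 1133 CPM and 1575 and 1492 CPM. Leydig and peritubular markers (4 of 7, without Cyp17a1, Hsd3b1 and Insl3) summed to 210 and 208 CPM in differentiation libraries and 209 and 220 CPM in controls. Immune markers (3 of 5, without Ptprc and Csf1r) summed to 52.2 and 4.32 CPM, against 9.84 and 13.6 CPM in controls. Some of these marker sums moved with the groups, and their part in the Zfp results was not tested. A contact total counts chimeric reads, so fewer cells of a type, less RNA per cell and fewer contacts per RNA cannot be told apart.

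Zfp RNAs together held a smaller share of contacts in the differentiation libraries, and the groups overlapped once the pairs of 1 member, Zfp704, were left out. Their pairs held 0.749% (95% Wilson interval 0.730% to 0.768%) and 0.749% (0.733% to 0.765%) of the counts in differentiation libraries, against 0.832% (0.816% to 0.849%) and 0.869% (0.854% to 0.885%) in controls. Both differentiation libraries lay below both controls, by a mean of −0.102 percentage points, and the exact two-sided permutation test gave p = 0.333, the smallest that 2 against 2 libraries allow. Zfp704 alone held 13.5% of the counts of Zfp pairs. Without its pairs the shares were 0.695% and 0.701% in differentiation libraries and 0.683% and 0.713% in controls, so the groups overlapped (exact permutation p = 1). Those shares still held Zfp949, with 920 and 1250 counts in differentiation libraries and 807 and 1048 in controls, most of them in the repeated counts described below. Whether the remaining members differ in share without both RNAs was not tested. Contacts within RNAs made up 42.1% and 45.7% of the Zfp counts in differentiation libraries and 46.5% and 46.1% in controls. Over all libraries that was 45.5% of the Zfp counts, against 49.9% of all counts in the table.

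Of the tested Zfp RNAs 13 changed their contact total, with 11 lower and 2 higher, and the share that fell was near that of all RNAs. Counts per RNA summed to between 4 and 4970, with a median of 43, and 144 members had counts enough for the test. The other 58 held at most 20 counts. By edgeR's quasi-likelihood test over all RNAs, with Benjamini-Hochberg adjustment and a call at an adjusted p under 0.05, 2 of the 144 rose (1.39%), against a background of 5.44% over all tested RNAs. In the same fit 11 fell (7.64%), against a background of 6.75%, and 131 did not pass. At an unadjusted p under 0.05 the numbers were 10 higher and 19 lower. The shares over all RNAs or pairs at that threshold were not computed. These numbers and the later unadjusted ones therefore have no background and are not read as a result about the members. The median log2 change of the tested members was −0.20, against −0.00071 over all RNAs, and the quartiles were −0.67 and 0.17, against −0.46 and 0.49. Scaling by column totals put the Zfp median at −0.04 and that of all RNAs at 0.16, and called 3 higher and 6 lower. Over all RNAs the calls moved too, from 598 higher and 742 lower to 780 higher and 458 lower. The log2 change was negative in 91 members and positive in 53. Both differentiation libraries lay above both controls in 24 members (16.7%, background 26.1%) and below both in 49 (34.0%, background 29.1%). Leaving out control library 1 left 2 lower calls and none higher, and leaving out control library 2 left 1 lower call and none higher. In those fits 3 and 3 members were higher, and 14 and 13 lower, at an unadjusted p under 0.05.

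**Figure D1:**
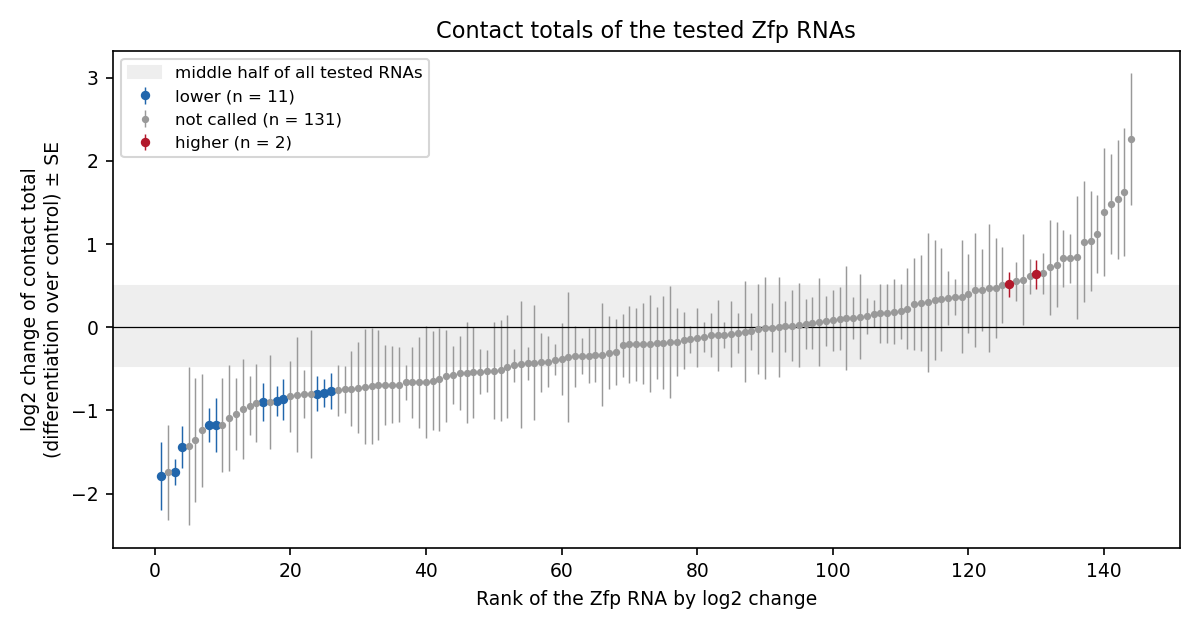
The log2 change (differentiation over control) of the contact total of each of the 144 tested Zfp RNAs is plotted in rank order, with bars for the standard error of the fit and colour for the call. The grey band spans the quartiles of all tested RNAs (−0.46 to 0.49), and the 11 RNAs called lower lie at or below −0.76.

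Zfp704 was the member with the most counts and fell with the smallest adjusted p. Its gene, on chromosome 3 at 9427010 to 9610085 (GRCm38.p6), spans 183 kb, the longest among the members that fell. Its contact total was 348 and 296 CPM in differentiation libraries and 1046 and 1102 CPM in controls. Both differentiation values lay well under both control values, with a log2 change of −1.74 (SE 0.16, adjusted p = 5.87e-05). The call held in all 18 alternatives that were run, with changes between −1.88 and −1.53 and an adjusted p of at most 0.0146.

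Falls of Zfp704 were seen both in contacts within its own RNA and in contacts with several other RNAs. Its within-RNA pair had 304 and 412 counts in differentiation libraries and 1350 and 1600 counts in controls (log2 change −1.47, SE 0.18, adjusted p = 1.63e-04). That pair held 71.2% and 75.05% of the Zfp704 counts in differentiation libraries and 74.7% and 73.2% in controls, ranges that overlap. Pairs were fitted and scaled apart from totals, so changes of pairs and of totals are not on the same scale. Of the 27 pairs of Zfp704 with other RNAs, the pair with Neat1, the architectural RNA of paraspeckles, had 1 and 2 counts in differentiation libraries and 37 and 53 in controls. Its log2 change was −4.25 (adjusted p = 7.17e-04, SE 0.64), and the ratio of differentiation over control was 0.0492 with a counting interval of 0.00996 to 0.149. The pair with the nuclear-speckle RNA Malat1 had 5 and 7 counts in differentiation libraries and 47 and 52 in controls (−2.46, adjusted p = 0.00562). Falls were smaller with Gm26917, at 14 and 23 counts in differentiation libraries against 63 and 116 in controls (−1.69, adjusted p = 0.0126). The pair with Gm42418 had 14 and 31 counts against 88 and 121 in controls (−1.67, SE 0.34, adjusted p = 0.00826). The pair with Slc9a9, a sodium/proton exchanger gene, had 19 and 20 counts against 100 and 62 in controls (−1.49, adjusted p = 0.0375). In each of these pairs both differentiation libraries had fewer counts than either control. Zfp704 was also joined to Pag1, a gene 77.4 kb away on the same chromosome, with 18 and 4 counts in differentiation libraries and 18 and 63 in controls. Those libraries of 1 group differed widely, and the change did not pass (−1.17, SE 0.65, adjusted p = 0.326). Whether the smaller fall with other partners differs from that with Neat1 was not tested.

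**Figure D2:**
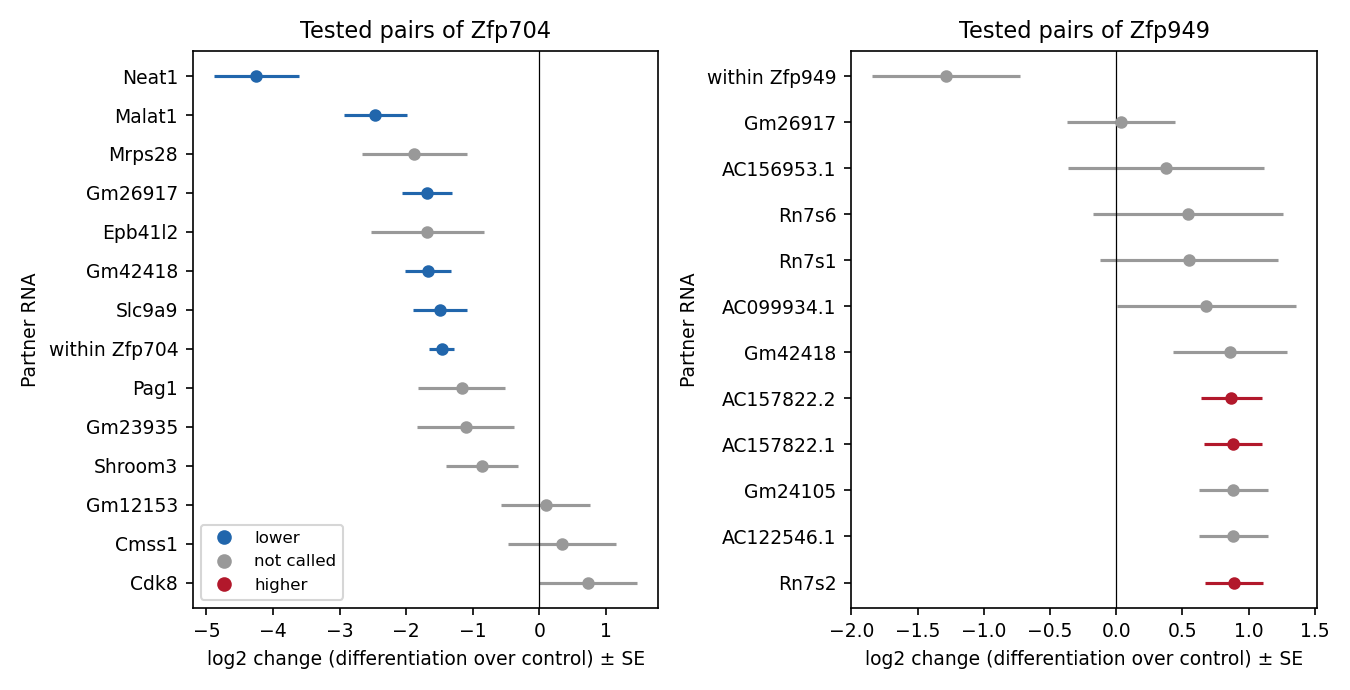
The log2 change (differentiation over control) of every tested pair of Zfp704 (left) and Zfp949 (right) is plotted with the standard error of the fit, and colour gives the call. For Zfp704 the pairs with Neat1 (−4.25) and Malat1 (−2.46) lie farthest left, and for Zfp949 the pairs called higher lie between 0.87 and 0.89 while its within-RNA pair lies at −1.29.

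The other 10 members that fell did so by less, or on fewer counts. Zfp608, the paralogue of Zfp609, had a contact total of 5.71 and 6.48 CPM in differentiation libraries and 23.7 and 19.1 CPM in controls (log2 change −1.79, SE 0.41, adjusted p = 0.0164). Zfp395 had 26.1 and 35.1 CPM, against 72.3 and 95.7 CPM in controls (−1.44, SE 0.25, adjusted p = 0.00346). Zfp462, which in embryonic stem cells works with histone H3K9 methyltransferases to keep lineage genes silent, had 99.5 and 70.7 CPM in differentiation libraries and 183 and 198 CPM in controls (−1.18, SE 0.20, adjusted p = 0.00314). The control values were higher than both differentiation values in each of the 3. Zfp266 had 16.3 and 12.4 CPM in differentiation libraries, against 32.4 and 31.7 CPM in controls (−1.17, SE 0.33, adjusted p = 0.0374).

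Another 6 fell by less than 1 on the log2 scale, with no overlap between groups. Zfp516, an activator of brown fat genes, had 41.6 and 38.3 CPM in differentiation libraries, against 65.4 and 83.1 CPM in controls (−0.90, SE 0.23, adjusted p = 0.0247). Zfp827, whose human counterpart brings the NuRD remodelling complex to telomeres in some tumour cells, had 96.2 and 121 CPM, against 193 and 212 CPM in controls (−0.89, SE 0.18, adjusted p = 0.00875). Zfp618 had 28.5 and 30.2 CPM in differentiation libraries, against 56.7 and 50.9 CPM in controls (−0.87, SE 0.25, adjusted p = 0.0408), a call lost in 10 of 18 alternatives. The differentiation values of these RNAs were all under both controls. Zfp644, a partner of the H3K9 methyltransferases G9a and GLP, had 47.3 and 55.6 CPM in differentiation libraries, against 82.2 and 97.7 CPM in controls (−0.80, SE 0.21, adjusted p = 0.0295). Zfp532 had 116 and 99.9 CPM, against 186 and 185 CPM in controls (−0.79, SE 0.17, adjusted p = 0.0127). Zfp362, named after its values were seen to complete the 11, had 66.0 and 47.5 CPM, against 94.9 and 95.7 CPM in controls (−0.76, SE 0.22, adjusted p = 0.0402). Without the pairs of Neat1, the total of Zfp644 changed by −0.61 and lost its call (adjusted p = 0.0978). Without those of Neat1 and Malat1, Zfp266 changed by −0.88 and lost its call (adjusted p = 0.138), an alternative chosen after seeing the data.

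**Figure D3:**
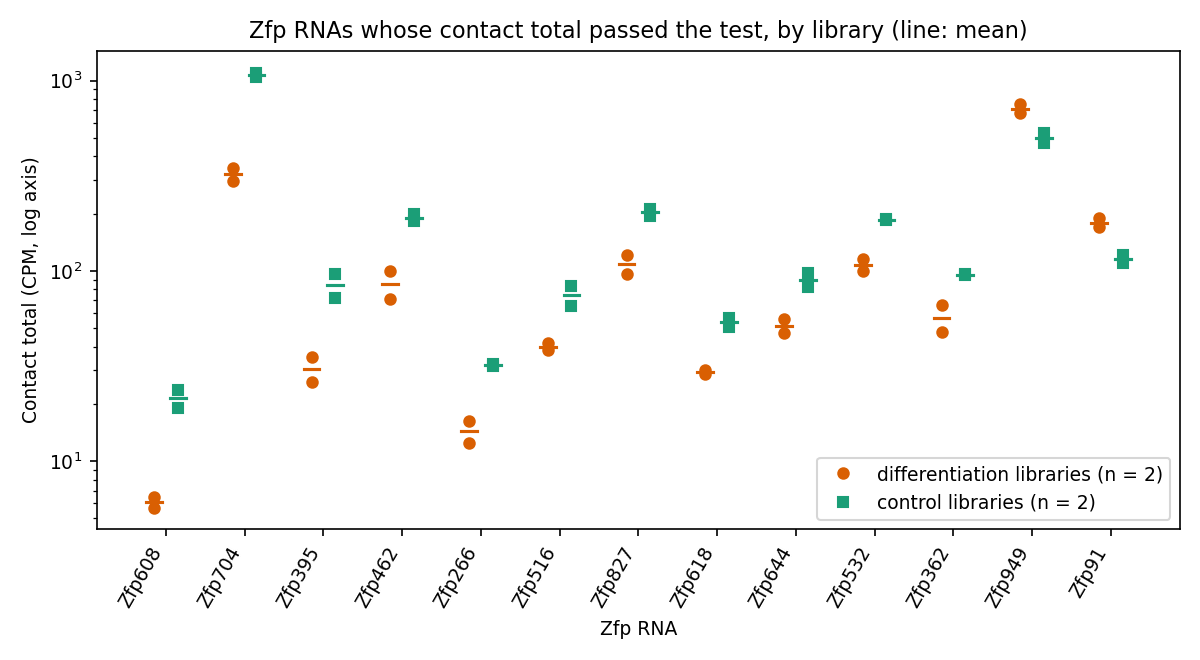
Contact totals in CPM (log axis) of the 13 Zfp RNAs that passed the test are plotted for each library, with differentiation libraries left of control libraries and a short line at each group's mean (n = 2). The differentiation points lie below both control points in the 11 that fell and above both in Zfp91 and Zfp949.

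The risers were Zfp91 and Zfp949. Zfp91, which encodes an atypical ubiquitin ligase of the NF-kappaB-inducing kinase, had 170 and 188 CPM in differentiation libraries and 109 and 121 CPM in controls (log2 change 0.63, SE 0.17, adjusted p = 0.0341). Its within-RNA pair rose, with 182 and 312 counts, or 259 and 299 CPM, in differentiation libraries and 158 and 205 counts, or 133 and 147 CPM, in controls (0.99, SE 0.23, adjusted p = 0.0149). Its total over between-RNA pairs only did not pass (0.35, adjusted p = 0.499).

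Zfp949 had 750 and 675 CPM in differentiation libraries and 467 and 528 CPM in controls (log2 change 0.52, SE 0.15, adjusted p = 0.0473). Most of its counts stood in pairs whose counts another RNA repeated exactly. Of its 14 pairs with other RNAs, 7 had exactly the same counts in all 4 libraries as the pair of the same partner with Gm26461, and those 7 held 3664 of its 4025 counts (91.0%). The 3 between-RNA pairs of a Zfp RNA that rose were all among them. The pair with Rn7s2, a copy of the 7S RNA of the signal recognition particle, had 230 and 300 counts in differentiation libraries and 190 and 239 in controls (0.89, adjusted p = 0.0239). The pair with AC157822.1 had 230 and 298 counts, against 190 and 239 in controls (0.88, adjusted p = 0.0247). The pair with AC157822.2 had 188 and 240 counts, against 155 and 196 in controls (0.87, adjusted p = 0.0333). With counts so nearly equal the 3 rises are not given as separate results, and whether reads were counted under both Zfp949 and Gm26461 was not tested. The pairs with AC122546.1 and Gm24105, equal to each other at 102 and 155 counts in differentiation libraries and 81 and 126 in controls, did not pass (0.88, adjusted p = 0.0575).

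With most of those counts set aside the change of Zfp949 was negative and did not pass. Its within-RNA pair had 11 and 5 counts in differentiation libraries and 32 and 28 in controls (log2 change −1.29, SE 0.56, adjusted p = 0.198), or 1.20% and 0.400% of its counts against 3.97% and 2.67%. With only 1 of each set of identical pairs kept, its total changed by −0.21 (adjusted p = 0.590). The pair kept was the first by name, so a pair of Zfp949 could be dropped in favour of that of Gm26461. That alternative therefore does not show the total with each shared read counted once for Zfp949. Without its pairs with Rn7s1, Rn7s2, Rn7s6, AC157822.1, AC157822.2, AC122546.1 and Gm24105, a choice made after seeing the data, the total changed by −0.23 (adjusted p = 0.534).

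Contacts within Zfp RNAs were measured for 64 members, and 57 of those pairs could be tested. Of the 57, 4 rose (7.02%), against a background of 12.3% over all within-RNA pairs, and 2 fell (3.51%), against a background of 3.33%. The median log2 change was 0.13, and that of all tested within-RNA pairs was 0.44. Beside Zfp91, the pair of Zfp943 rose, at 83.9 and 86.2 CPM in differentiation libraries and 32.9 and 38.7 CPM in controls (1.24, SE 0.31, adjusted p = 0.0243). Zfp326, which encodes a subunit of the DBIRD complex that links RNA polymerase II with splicing, had 85.3 and 67.0 CPM, against 34.6 and 26.5 CPM in controls (1.31, SE 0.33, adjusted p = 0.0275). Zfp697 had 54.0 and 40.2 CPM in differentiation libraries, against 19.4 and 16.5 CPM in controls (1.38, SE 0.39, adjusted p = 0.0494), a call lost in 9 of 14 alternatives. In these pairs every differentiation value was above every control value. The contact totals of Zfp943 (0.61, adjusted p = 0.0873), Zfp326 (0.65, adjusted p = 0.114) and Zfp697 (0.83, adjusted p = 0.0932) did not pass. Beside Zfp704, the within-RNA pair of Zfp395 fell, at 42.6 and 57.5 CPM in differentiation libraries and 99.4 and 130 CPM in controls (−1.18, adjusted p = 0.0258).

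Contacts of Zfp RNAs with other RNAs were measured in 596 pairs. Of these between-RNA pairs, 296 could be tested. Of the 296, 3 rose (1.01%), against a background of 1.3%, and 7 fell (2.36%), against a background of 2.25%. Their median log2 change was −0.10, and that of all between-RNA pairs was −0.05. Over pairs of both kinds, 353 were tested, 7 rose against a background of 2.85% and 9 fell against a background of 2.4%. Scaling by column totals gave 3 higher and 10 lower, while the calls over all pairs went from 902 higher and 760 lower to 626 and 1003. A Zfp RNA had a median of 2 between-RNA pairs, and Zfp462 had the most, with 32. Another 21 members had a within-RNA pair only. Of 132 distinct partners, 99 were joined to 1 Zfp RNA each.

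A few partners recurred across the family. Gm42418 was joined to 123 Zfp RNAs, Slc9a9 to 109 and Gm26917 to 102, and these 3 partners held 48.8% and 53.7% of the between-RNA counts of Zfp RNAs in differentiation libraries and 57.1% and 57.6% in controls. The same partners held 47.8% and 54.9% of all between-RNA counts in differentiation libraries and 56.1% and 59.7% in controls. Each of the 3 had 1 Zfp pair that fell, the one with Zfp704, of 82 tested for Gm42418, 56 for Slc9a9 and 67 for Gm26917. Of their other tested pairs 1.04%, 0.596% and 1.90% fell. The medians of their tested Zfp pairs were −0.16 for Gm42418, 0.06 for Slc9a9 and −0.11 for Gm26917, beside 0.05, 0.03 and −0.23 over their other tested pairs.

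The pairs with Neat1 and Malat1 lay lower. Neat1 was joined to 11 Zfp RNAs, and all 7 tested pairs had a negative change, between −4.25 and −0.51 with a median of −2.53. Its other tested pairs had a median of −1.99, and 33.4% of those fell. The 3 Zfp pairs that fell were those with Zfp704, Zfp644 and Zfp462. Neat1-Zfp644 had 1 and 2 counts in differentiation libraries and 19 and 27 in controls (−3.29, SE 0.73, adjusted p = 0.0127), a ratio of differentiation over control of 0.0963 with a counting interval of 0.0192 to 0.2996. Neat1-Zfp462 had 1 and 4 counts, against 16 and 28 in controls (−2.53, SE 0.69, adjusted p = 0.0403). Neat1 as a whole fell as well, with a log2 change of its contact total of −2.34 (adjusted p = 3.07e-05). A pair with fewer than 1 count in any library would not have been listed, so these low counts stand near the least the table can hold. Neat1 took 0.669% and 0.595% of the between-RNA counts of Zfp RNAs in differentiation libraries and 2.36% and 2.94% in controls. Malat1 took 2.18% and 1.74% in differentiation libraries and 4.09% and 4.54% in controls. For both shares the groups did not overlap and the exact permutation test gave p = 0.333. The 11 tested Malat1 pairs had a median of −1.15, beside −0.86 for its other pairs. Of the 11, 1 fell, and of the other tested Malat1 pairs 6.03% fell. Shroom3, a gene of actin-based cell shape, was joined to 25 Zfp RNAs, and none of the 8 tested pairs passed (median −0.75).

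**Figure D4:**
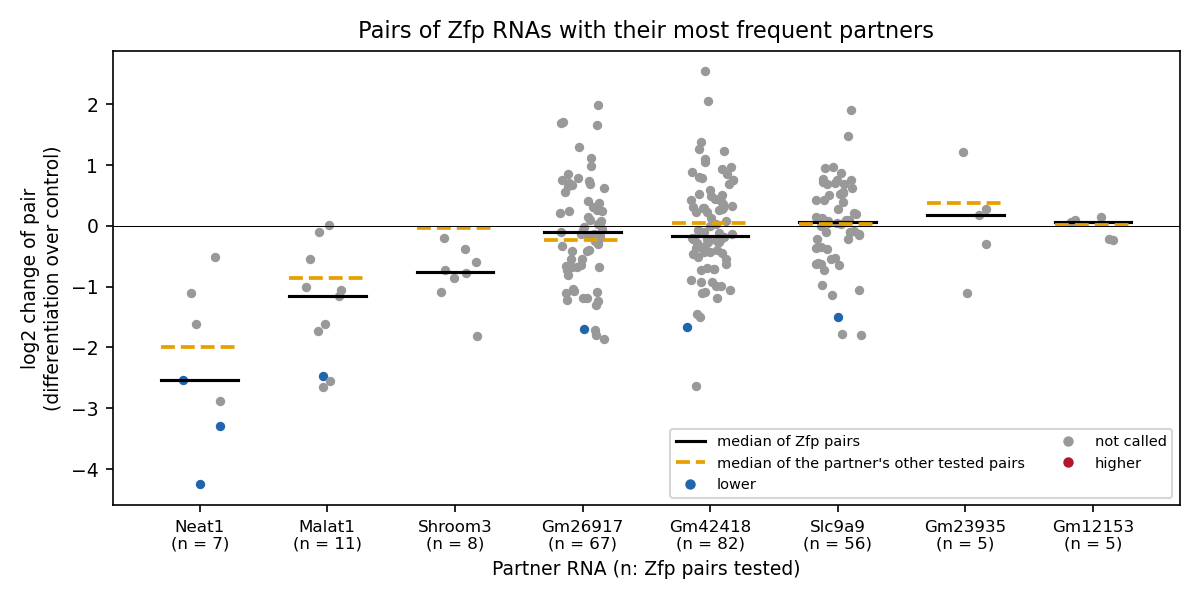
Each point is the log2 change (differentiation over control) of a tested pair of a Zfp RNA with 1 of its 8 recurrent partners, coloured by the call, with a solid line at the median of the Zfp pairs and a dashed line at the median of the partner's other tested pairs. The Neat1 pairs lie lowest, with a median of −2.53, and the pairs of Gm42418, Gm26917 and Slc9a9 scatter around 0.

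Among the 6 between-RNA pairs with the most counts, the only one without Zfp949 was Gm20422-Zfp866. It had 68 and 59 counts in differentiation libraries and 80 and 73 in controls (log2 change 0.34, adjusted p = 0.622). Scaled by library size the sign was positive although the counts were lower, since the differentiation libraries held fewer counts in all.

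Zfp RNAs were joined to each other in 5 pairs, and all 5 joined genes that lie near each other on 1 chromosome. Of the 20100 couples that the located members could form, 2140 lay on the same chromosome and 252 within 1000 kb, and the 5 listed pairs were among those 252. The gene ends were 31.5 kb apart for Zfp960 and Zfp97 on chromosome 17, 84.4 kb for Zfp60 and Zfp59, 84.8 kb for Zfp114 and Zfp93 and 111 kb for Zfp235 and Zfp108, these on chromosome 7, and 156 kb for Zfp937 and Zfp442 on chromosome 2. Zfp960-Zfp97 had 24 and 18 counts in differentiation libraries and 36 and 29 in controls (log2 change −0.03, adjusted p = 0.985), and its sign turned to 0.0051 with DESeq2. Zfp937-Zfp442 had 8 and 5 counts in differentiation libraries and 3 and 4 in controls (1.46, SE 0.73, adjusted p = 0.269). The other pairs had too few counts for the test. Zfp60-Zfp59 had 1 and 1 counts in differentiation libraries and 5 and 3 in controls. Zfp114-Zfp93 had 8 and 4 counts, against 2 and 5 in controls, and Zfp235-Zfp108 had 1 and 3 counts, against 2 and 5 in controls. Neither of the tested pairs passed. Zfp960 and Zfp97 were also both joined to Chd1, a chromatin remodeller gene on chromosome 17, with 24 and 24 counts for Zfp960 in differentiation libraries and 44 and 32 in controls, and 33 and 38 counts for Zfp97 against 44 and 48 in controls.

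Neighbouring Zfp genes can be near copies, and the promoters of joined genes were compared as a description of their likeness. RefSeq promoters, from 250 bases before to 50 bases after 1 annotated transcript start per gene, were at hand for both genes in 3 of the 5 pairs. For Zfp59 the whole stretch lies inside the gene's span, so its pair with Zfp60 is left aside. The comparison couples of Zfp genes given below were not screened in this way. The promoters of Zfp937 and Zfp442 were 90.1% identical over their aligned length, against 51.2% for Zfp235 and Zfp108. The 69 couples of Zfp genes within 100 kb of each other had a median of 50.1% and at most 62.5%, and 13459 couples farther apart and not joined had a median of 49.4% and at most 72.2%. The promoters of Zfp937 (chr2:150217849-150218148, plus strand) and Zfp442 (chr2:150451452-150451751, minus strand), GRCm38.p6, are shown because they are the most alike of the promoters compared between joined genes, with their longest shared run of 112 bases in capitals:
Zfp937: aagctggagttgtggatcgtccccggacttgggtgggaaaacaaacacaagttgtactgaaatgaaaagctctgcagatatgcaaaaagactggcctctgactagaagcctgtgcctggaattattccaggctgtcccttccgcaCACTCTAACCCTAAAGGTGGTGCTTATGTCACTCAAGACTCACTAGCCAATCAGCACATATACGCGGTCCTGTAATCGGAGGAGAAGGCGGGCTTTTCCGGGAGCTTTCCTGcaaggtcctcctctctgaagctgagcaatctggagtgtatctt
Zfp442: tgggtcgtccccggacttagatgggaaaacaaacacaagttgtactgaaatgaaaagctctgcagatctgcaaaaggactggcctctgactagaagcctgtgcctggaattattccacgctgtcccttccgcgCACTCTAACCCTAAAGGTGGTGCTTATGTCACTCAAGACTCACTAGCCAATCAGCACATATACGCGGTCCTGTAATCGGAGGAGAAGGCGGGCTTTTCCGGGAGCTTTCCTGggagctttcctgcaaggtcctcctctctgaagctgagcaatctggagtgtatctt
Most of each stretch lies before the start and outside the RNA, and the transcribed sequences of these genes were not compared.

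Pairs of Zfp RNAs with RNAs outside the family were also located. Of the 315 with both genes in the reference table, 53 (16.8%) lay on 1 chromosome, against 14.5% of pairs without a Zfp RNA. Of the 315, 30 (9.52%) lay within 1000 kb, against 5.53%, and 9 (2.86%) within 100 kb, against 2.70%. These shares are given as a description, since pairs that share an RNA are not independent.

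Members in gene clusters held fewer counts than members that stood alone. Another Zfp gene of the reference table lay within 100 kb of 101 members and not of the other 100. The clustered members had a median of 21 counts, and 55 of them (54.5%) had counts enough for the test. The isolated members had a median of 98 counts, and 88 of them could be tested. A within-RNA pair was listed for 24.8% of the clustered and 38% of the isolated members, and the median gene span was 18.2 kb and 27.3 kb. Of the 55 tested clustered members 1 fell (1.82%) and none rose, and of the 88 tested isolated members 10 fell (11.4%) and 2 rose. Over all tested RNAs 6.75% fell and 5.44% rose. The median log2 change was −0.20 in both sets, while counts and gene span differed. The sets were not matched for either, and what the difference in calls goes with was not tested. Chromosome 7 held 52 members, of which 27 were tested and none passed, and chromosome 17 held 25, of which 15 were tested and none passed. Of the 10 members on chromosome 18, all tested, 3 fell (Zfp608, Zfp516 and Zfp532). Beside the background of 6.75% lower, the members tested per chromosome were few, and differences between chromosomes were not tested.

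The members that fell had longer genes at the median than the others, with ranges that overlapped. Their gene spans ran from 26.4 kb to 183 kb with a median of 105 kb. Members that did not pass ran from 2.45 kb to 456 kb with a median of 22.3 kb, and those that rose had a median of 26.1 kb. None of the 58 tested members under 20 kb fell, 3 of 57 from 20 to 50 kb did (5.26%), 2 of 12 from 50 to 100 kb (16.7%) and 6 of 16 over 100 kb (37.5%). Over all RNAs the shares that fell in the same classes were 2.76%, 3.59%, 6.70% and 19.6%, so longer classes held larger shares in the whole table too. The 2 longest classes hold few members, and the classes were not matched for counts. Spearman's correlation of span with log2 change was −0.10 across 143 members and −0.21 across 9993 RNAs, given as a description, since genes are not independent replicates and share the same libraries.

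**Figure D5:**
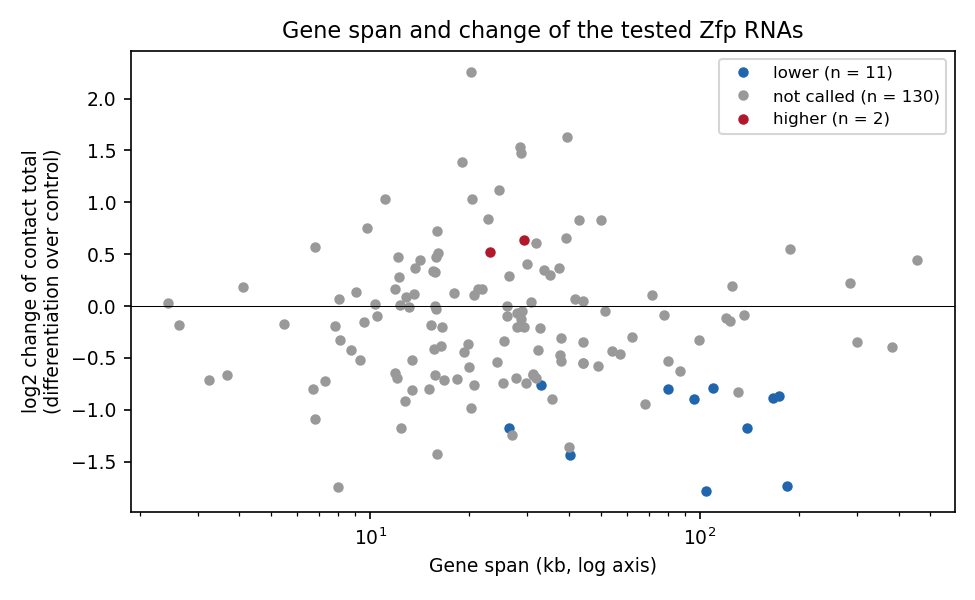
The log2 change of the contact total (differentiation over control) of each tested Zfp RNA with a located gene is plotted against its gene span in kb (log axis), coloured by the call. The members called lower lie between 26.4 and 183 kb, and none of the members under 20 kb was called.

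Among the members with the most counts, several did not pass. Zfp148, a transcription factor of GC-rich promoters, had 269 and 343 CPM in differentiation libraries and 333 and 346 CPM in controls (log2 change −0.15, adjusted p = 0.623). Zfp609 had 237 and 236 CPM, against 266 and 238 CPM in controls (−0.09, adjusted p = 0.766), beside the fall of its paralogue Zfp608, and the difference between them was not tested. Zfp771 had 178 and 178 CPM in differentiation libraries, against 156 and 161 CPM in controls (0.16, adjusted p = 0.568). Zfp638, an RNA-binding protein gene that in human cells works with the HUSH complex against retroviral DNA, had 112 and 121 CPM, against 114 and 139 CPM in controls (−0.12, adjusted p = 0.742). The groups overlapped in Zfp148 and Zfp638, and the small changes of Zfp148, Zfp609 and Zfp638 turned positive under column totals. Per kb of gene span, the level over the 4 libraries was highest for Zfp949 (26.2 CPM per kb), most of it in the repeated counts described above, followed by Zfp771 (14.2), Zfp646 (5.85) and Zfp91 (5.04). Zfp704, first by counts, came eighth on that scale with 3.81 CPM per kb.

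Among the members picked for a known role in germ cells, pluripotent cells, imprinting or mRNA decay, the only one that passed was Zfp462. The imprint keeper Zfp57 had 22.0 and 15.7 CPM in differentiation libraries and 19.7 and 21.7 CPM in controls (log2 change −0.16, adjusted p = 0.826). Zfp568, the KRAB repressor of a placental Igf2 transcript, had 21.2 and 23.2 CPM, against 22.0 and 21.2 CPM in controls (0.05, adjusted p = 0.950). Zfp809, which silences murine leukaemia virus in embryonic stem cells, had 3.26 and 5.40 CPM in differentiation libraries, against 5.21 and 5.04 CPM in controls (−0.20, adjusted p = 0.878). The values of the groups overlapped in these 3 KRAB genes. Zfp36, or tristetraprolin, which brings AU-rich mRNAs to decay, had 7.34 and 7.56 CPM, against 8.68 and 6.04 CPM in controls (0.03, adjusted p = 0.983). Zfp281, a partner of the pluripotency factor Nanog, changed by −0.18 (adjusted p = 0.837), and the paralogues Zfp423 and Zfp521 by −0.34 (adjusted p = 0.346) and 0.22 (adjusted p = 0.824). Zfp318, a nuclear regulator of immunoglobulin RNA processing in B cells, had 62.8 and 57.2 CPM in differentiation libraries and 48.6 and 44.3 CPM in controls (0.37, adjusted p = 0.317). Zfp217 had 21.2 and 28.1 CPM, against 13.3 and 14.6 CPM in controls (0.83, SE 0.34, adjusted p = 0.147), with both differentiation libraries above both controls. Zfp42, Zfp541, Zfp322 and Zfp296 were not listed under those names and were not analysed here.

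In a list of KRAB corepressor genes and related chromatin and DNA methylation genes, 1 passed, and neither Trim28 nor Setdb1 did. Of 25 genes in that list 22 were listed and tested, 1 rose (4.55%) and none fell, against backgrounds of 5.44% and 6.75%, with a median log2 change of −0.12. At 122 ± 13.6 CPM in differentiation libraries and 57.3 ± 17.2 CPM in controls (SD, n = 2 each), the riser was Uhrf1, which guides maintenance DNA methylation (1.09, SE 0.23, adjusted p = 0.0105). Trim28 itself had 51.4 and 45.9 CPM in differentiation libraries and 37.0 and 42.3 CPM in controls (0.29, adjusted p = 0.487). Dnmt3b, Resf1 and Tasor were not listed.

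Other zinc finger families were counted beside the backgrounds of 5.44% higher and 6.75% lower over all RNAs. Of 29 tested Zbtb RNAs none rose and 2 fell (6.90%), with a median of −0.02. They were Zbtb38, a methyl-CpG binding factor (−1.11, SE 0.17, adjusted p = 0.00170), and Zbtb20 (−0.63, SE 0.15, adjusted p = 0.0198). None of the 6 tested Zkscan RNAs (median −0.35) or the 4 tested Zscan RNAs (median −0.02) passed, with Zkscan17 at 0.40 (adjusted p = 0.484) and Zkscan8 at 0.43 (adjusted p = 0.473). Of 16 tested RNAs whose names begin with Zfp but fall outside the rule, none rose and 3 fell (18.8%), with a median of −0.22. They were Zfpm2, or Fog2, the cofactor of Gata4 (−1.33, SE 0.15, adjusted p = 2.44e-04), Zfp36l1, an mRNA decay factor (−1.26, adjusted p = 0.0165), and Zfp385b (−0.74, adjusted p = 0.0103). All 3 had lower contact totals in both differentiation libraries than in either control.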

How the data were processed

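Formaldehyde-fixed cells were treated with micrococcal nuclease and close RNA ends were ligated in place before strand-specific sequencing, per the labels' protocols. The deposited table held whole-number counts of chimeric reads per pair of RNAs in each of the 4 libraries, without normalization. STAR and GRCm38 are named per the submitters' processing notes, without a role. The sources used here do not say how reads were called chimeric, deduplicated or assigned to similar and overlapping genes. The contact total of an RNA is the sum of the counts of all its pairs. A within-RNA pair enters it once, and a between-RNA pair enters the totals of both RNAs.

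Totals and pairs of the whole table were each tested with edgeR 4.0.16 in R 4.3.3 (quasi-likelihood F test, TMM scaling, filterByExpr with minimum count 5 and minimum total 10, two-sided, Benjamini-Hochberg adjustment over all features tested, called at an adjusted p under 0.05). Levels are CPM on scaled library sizes, and log2 changes are those of differentiation over control, each with its fitted standard error (SE). The biological coefficient of variation was 18.7% over RNAs and 24.9% over pairs. Shares were tested by exact permutation. Wilson intervals (95%) of shares and exact intervals of count ratios cover counting error only. The test was tried on simulated counts with known changes. Promoters were aligned with biopython 1.88.

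Named RNAs were the 10 members with the most counts, up to 10 called rises and 10 called falls by size with no overlap between groups, all pairs of different members, the 6 other between-RNA pairs with the most counts, up to 6 called rises and 6 called falls among these, members of known role, and up to 3 called genes per list. The within-RNA pairs, neighbours, recurrent partners and levels per kb named beside them were chosen after their values were seen. The members, the lists and these rules were chosen with earlier results of these data known. Library replicate 1 and replicate 2 of the labels could pair the groups, but same-numbered libraries deviated together only weakly (correlation 0.145 over totals, 0.0176 over pairs), and the labels name no shared culture.

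Alternatives were RLE scaling, column totals, no filter, the default filter (minimum count 10, minimum total 15), a replicate block, DESeq2 1.42.0, an adjusted p under 0.1, leaving out Neat1 pairs, leaving out Gm42418 and Gm26917 pairs, keeping 1 of each set of identical pairs, between-RNA or within-RNA pairs only, and leaving out each library in turn. In the last of these, the single remaining library of a group is taken to vary as the other group does. Added after the data had been seen were leaving out the 7S-related pairs of Zfp RNAs and leaving out Malat1 with Neat1 pairs. Identical pairs were those that shared a partner and had the same counts in all libraries, with a summed count of at least 20. The first by name was kept, so a pair of a Zfp RNA could be dropped in favour of that of another RNA. In all 1165 pairs were dropped, 34 of them with a Zfp RNA, and the numbers of that alternative carry this choice.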

Additional observations from a re-analysis of the deposited data

How the results depend on the processing

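Zfp704 kept its fall in every alternative run, total and within-RNA pair alike. The 11 lower totals became 6 under column totals, 5 with DESeq2, 7 without Gm42418 and Gm26917 pairs, 7 over between-RNA pairs only and 4 over within-RNA pairs only. The 2 higher totals became 0 with no filter, without Gm42418 and Gm26917 pairs and over within-RNA pairs only (13, 6 and 3 at an unadjusted p under 0.05). They became 1 without Neat1 pairs, with identical pairs kept once, without the 7S-related pairs or without Neat1 and Malat1 pairs, and 5 at an adjusted p under 0.1. The 7 higher pairs became 3 under column totals, with no filter, without Gm42418 and Gm26917 pairs and with identical pairs kept once, and 11 at an adjusted p under 0.1. The 9 lower pairs became 5 without Neat1 pairs. The cause of these moves was not tested, beyond the fewer features tested where pairs were left out (111 of 144 totals without the 2 Gm RNAs, 56 within RNAs). The replicate block gave 3 higher and 13 lower totals and 9 higher and 12 lower pairs, and kept all 13 calls of totals. Over all RNAs it called 942 higher and 977 lower, against 598 and 742 in the main fit. Column totals called 780 and 458 over all RNAs, and DESeq2 496 and 584.

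With each library left out in turn, lower totals numbered 1 to 11, higher totals 0 to 4, higher pairs 0 to 9 and lower pairs 5 to 13. The lowest numbers came without a control library. Without control 1, 17 pairs were higher and 28 lower at an unadjusted p under 0.05, and without control 2, 16 and 24. The all-RNA calls fell in those fits too, to 107 higher and 187 lower and to 46 and 83. Zfp827 and Zfp462 lost their calls only in those 2 fits (adjusted p up to 0.189 and 0.112). Zfp395 lost its call in 2 of 18 alternatives, Zfp532 in 3, Zfp608 in 5, Zfp91 in 6 and Zfp618 in 10, and of 17 alternatives Zfp516 lost it in 5, Zfp266 in 6 and Zfp644 in 7. Zfp949 lost its call in 6 of 18 alternatives and changed sign in another 3. Zfp362 was not followed through the alternatives. Among within-RNA pairs Zfp697 lost its call in 9 of 14 alternatives, Zfp326 in 3, Zfp91 and Zfp943 in 2 and Zfp395 in 1.

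The share difference of −0.102 percentage points was −0.139 without Neat1 pairs, −0.141 with identical pairs kept once, −0.0527 over between-RNA and −0.147 over within-RNA pairs, and −0.120 to −0.0832 with a library left out. Signs turned for small changes. Column totals gave 0.018 for Zfp148, 0.069 for Zfp609, 0.045 for Zfp638 and 0.00039 for Zfp57, no filter −0.0032 for Zfp36, and DESeq2 0.0051 for Zfp960-Zfp97. Without Gm42418 and Gm26917 pairs Zfp568 was −0.024 and Zfp281 0.19. Over between-RNA pairs only Zfp771 was −0.69. Zfp949 was −0.21 with identical pairs kept once, −0.23 without the 7S-related pairs and −1.65 within RNAs only. With each library left out in turn the change ran from −0.34 to 0.049 for Zfp148, −0.25 to 0.035 for Zfp638, −0.37 to 0.086 for Zfp57 and −0.027 to 0.14 for Zfp568. It ran from −0.64 to 0.11 for Zfp809, −0.22 to 0.30 for Zfp36, −0.20 to 0.63 for Zfp521, −0.56 to 0.42 for Zfp960-Zfp97 and −0.079 to 0.69 for Gm20422-Zfp866. Of 698 recomputed values of 45 named totals and pairs, 575 kept direction and side of the threshold, 90 lost a call, 11 gained one and 22 changed sign.

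Depth limits these results, since 58 members held at most 20 counts and the 2 libraries per group allow no exact p under 0.333.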
